A study of Mus musculus with 12 samples.

Results

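Slc16a3 (ENSMUSG00000025161) encodes MCT4, a proton-coupled transporter of the plasma membrane that carries lactate out of glycolytic cells. It is 1 of the 982 genes in the deposited table. It was selected by its low level in Resf1 knockout lines against the control line, so its values against control are given as a description and without a test. RNA sequencing was performed on 6DT1, a mouse mammary cancer cell line from a MMTV-Myc tumor. Per the labels, 3 libraries came from a wild type line with a scrambled guide (sgControl) and 3 each from lines edited by CRISPR with the guides sg1, sg2 and sg3, called Resf1 KO. Resf1 codes for a retroelement silencing factor. All lines were grown in serum-containing medium with puromycin, according to the labels. The methods of the study describe each knockout line as grown from a single cell after lentiviral delivery of Cas9 and the guide, and the dishes as seeded in triplicate. The 3 libraries of a line are therefore dishes, the p-values below measure the spread between dishes, and guide, clone and culture history cannot be told apart. Resf1 was not analysed here, so the knockout was not checked on its own transcript.

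Glycolytic cells reduce pyruvate to lactate and must remove the lactate together with a proton. MCT4 carries both out together, and it needs the chaperone basigin to reach the cell surface. Its gene is a known target of hypoxia-inducible factors, which bind short DNA elements built around ACGTG, and it is often raised in glycolytic tumors.

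The promoter of Slc16a3 is shown because it carries this element. It is also rich in runs of guanine, a sequence feature that can fold into G-quadruplexes, and the data here do not bear on any role of RESF1 at promoters. The window of 300 bases runs from 250 before the transcription start to 50 after it (RefSeq, GRCm38.p6, chr11:120948817-120949116, + strand), and ACGTG is in capitals.

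Slc16a3 promoter: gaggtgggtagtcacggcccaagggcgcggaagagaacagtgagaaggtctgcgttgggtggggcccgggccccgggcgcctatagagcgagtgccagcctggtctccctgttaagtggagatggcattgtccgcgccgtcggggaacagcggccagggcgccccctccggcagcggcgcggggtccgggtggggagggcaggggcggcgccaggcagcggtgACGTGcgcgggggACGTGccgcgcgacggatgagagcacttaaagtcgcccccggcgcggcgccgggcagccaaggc

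ACGTG was searched on both strands and was found 2 times, each on the + strand, with first bases at -27 and -14 from the start. The longer element CACGTG, bound by MYC and its relatives and overlapping ACGTG, was found 0 times. Of 32851 RefSeq promoters of the same length, 19.6% held ACGTG and 7.15% held CACGTG. Among the 954 promoters of 702 deposited genes these shares were 26.3% and 12.5%. A pattern of 4 runs of at least 3 guanines with gaps of 1 to 7 bases was found 2 times on the + strand and 0 times on the other, and was present on either strand in 18.6% of all promoters and 28.4% of those of deposited genes. The GC content of the window was 73.3%, against a median of 52.7% over all promoters. These matches describe letters in the window and are no measurement of binding.

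In the control line Slc16a3 reached 434.6, 418.3 and 472.0 normalized counts, that is, estimated reads scaled by a size factor for each library. In sg1 the values were 27.8, 42.8 and 36.6. In sg2 they were 35.6, 52.9 and 27.1, and in sg3 58.4, 41.5 and 36.7. All 9 knockout libraries lay below all 3 control libraries, with 6.14% to 13.2% of the control mean, and the 3 knockout lines overlapped one another. Such non-overlap below control was found for 16.1% of the table, and non-overlap above control for 14.8%. The table holds only genes that differ between the knockout lines and control, and Slc16a3 was chosen for this difference, so nothing is read from these counts. In a bulk library, fewer cells expressing a gene and less RNA per cell cannot be told apart.

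**Figure D1:**
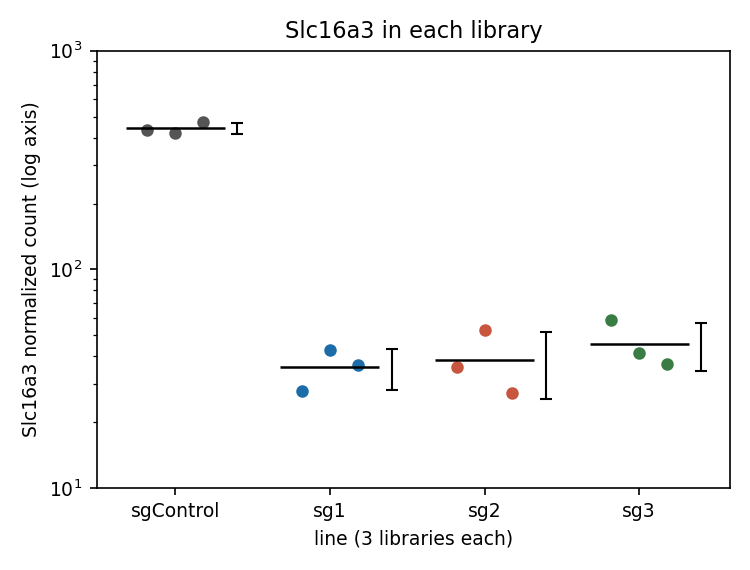
Slc16a3 normalized count on a log axis in each of the 12 libraries, with the mean of each line as a black bar and its SD (n = 3) as the vertical line beside the points. The control libraries lie between 418.3 and 472.0 and the 9 knockout libraries between 27.1 and 58.4, with the 3 knockout lines overlapping.

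The mean was 441.6 ± 27.5 for sgControl, 35.7 ± 7.55 for sg1, 38.6 ± 13.1 for sg2 and 45.5 ± 11.4 for sg3 (SD, n = 3 each). As ratios of means, Slc16a3 was 12.4-fold lower in sg1, 11.45-fold lower in sg2 and 9.70-fold lower in sg3 than in sgControl. On the log2(value + 1) scale the differences from sgControl were -3.61, -3.53 and -3.28 with sg1, sg2 and sg3. The transcript was thus left at 8.09%, 8.73% and 10.3% of the control mean. It was still counted in every knockout library, at 26.1 to 53.2 estimated reads against 442.2 to 495.0 in control.

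Ranked by level within each library, Slc16a3 stood at position 553 to 576 of 982 in control and at 845 to 920 in the knockout libraries. By the size of its fall it stood at position 12 with sg1, 14 with sg2 and 19 with sg3, but at position 3 in the mean of the 3 lines. Its lowest control library exceeded its highest knockout library by 2.82 on the log2 scale, the widest such gap of the table, followed by 3830417A13Rik with 1.35. Among the 19 genes with a mean difference under -2, the range among the 3 lines was 0.34 for Slc16a3. It was 0.20 for Gm28539, 0.47 for H2afy2 and 0.55 for Rassf9, and the other 15 genes spanned 2.12 to 8.46. These ranks use the contrast that chose the gene and carry no test.

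**Figure D2:**
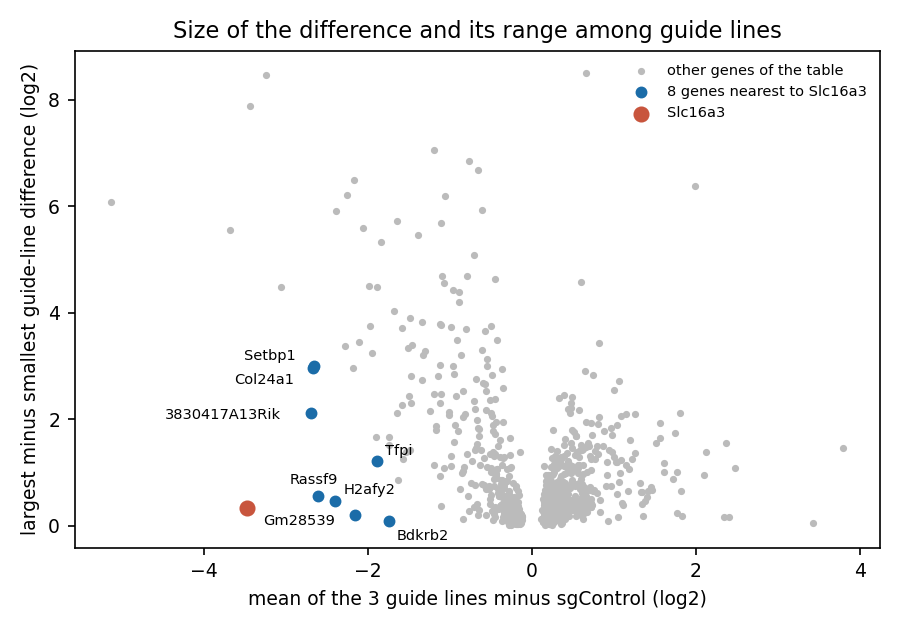
Mean log2 difference of the 3 guide lines from sgControl (horizontal) against the range of the 3 differences (vertical) for the 982 genes of the table, with Slc16a3 in red and its 8 nearest genes in blue. Slc16a3 sits at -3.47 with a range of 0.34, whereas the other genes with a mean difference under -3 have ranges of 4.49 or more.

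The levels of the 3 knockout lines were compared with one another, in contrasts other than the one that chose the gene. A gene chosen for its low level in these lines may be more alike among them. These tests are thus not independent of the choice, and a missed threshold is no evidence of equal levels. The control libraries enter these tests only through the shared estimate of the spread. No difference between knockout lines passed the threshold (limma on log2(value + 1), Benjamini-Hochberg adjustment over 982 genes, adjusted p at most 0.05, two-sided). Between sg1 and sg2 the difference was -0.08 (95% interval -0.56 to 0.41, adjusted p = 0.779), a ratio of 0.948 with an interval of 0.677 to 1.33. The level in sg1 was 0.793 times that in sg3 (interval 0.566 to 1.11, adjusted p = 0.213). The level in sg2 was 0.836 times that in sg3 (interval 0.597 to 1.17, adjusted p = 0.479). Equality of the 3 lines gave an adjusted p of 0.372. Of all genes tested, 67.6%, 65.7% and 30.5% passed for these 3 pairs, and 75.3% differed among the 3 lines. The order of levels was therefore sgControl, sg3, sg2 and sg1, in which the knockout lines did not differ beyond their spread. The intervals leave room for differences of up to 1.77-fold between knockout lines, or 1.87-fold when the spread is taken from the 9 knockout libraries alone (adjusted p of 0.288 or more), and the sign between sg1 and sg2 turned when either sg1 replicate 1 or sg2 replicate 2 was left out (0.09 and 0.17 on the log2 scale).

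The SD of Slc16a3 between dishes was larger in the knockout lines than in control on the log2 scale. It was 0.09 for sgControl (0.14 when scaled to table totals), 0.31 for sg1 (0.24), 0.47 for sg2 (0.49) and 0.34 for sg3 (0.39). Genes within 2-fold of its mean had median SDs of 0.09, 0.23, 0.22 and 0.24. A larger SD than that of Slc16a3 was found for 155 of 292 such genes in sgControl, 28 of 81 in sg1, 7 of 101 in sg2 and 32 of 117 in sg3. In sg2 the variance of the estimated reads was 3.62 times their mean, against a median of 1.30. In sg1 that ratio was 2.39 (median 1.21), and in sg3 it was 0.585 (median 1.92). These ratios use reads before division by the size factors, so differences in size factor between libraries enter them beside the spread between dishes. With 3 dishes per line they are also imprecise.

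The monocarboxylate transporter family is represented by 2 other members out of 17 listed. Slc16a6, a transporter known for the export of ketone bodies from liver, was measured at 118.2, 82.2 and 108.6 normalized counts in sgControl and at 8.21, 16.0 and 17.8 in sg1. It stood at 93.4 to 106.0 in sg2 and at 94.1 to 120.2 in sg3. It fell with sg1 (-2.84, adjusted p = 9e-09) but missed the threshold with sg2 (-0.02) and sg3 (0.01). Its 3 knockout lines differed (adjusted p = 3.5e-09). Slc16a6 overlaps Arsg and Amz2 on the opposite strand in the annotation, and the strand setting of the counting is not given in the sources used here.

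Slc16a10, a carrier of aromatic amino acids rather than lactate, was lower with all 3 lines. Its values were 613.1, 553.2 and 638.7 in sgControl, 424.3, 412.2 and 419.9 in sg1, 510.9, 451.1 and 478.4 in sg2, and 365.5, 430.3 and 396.9 in sg3. No knockout library reached the control libraries. The log2 differences were -0.52 (adjusted p = 1.39e-05), -0.32 (0.00267) and -0.60 (9.06e-06). Its lines also differed among themselves (adjusted p = 0.0138), sg2 being higher than sg1 and sg3. Per kilobase of annotated exon, the control level was 83.0 normalized counts for Slc16a3, 81.8 for Slc16a10 and 21.1 for Slc16a6. With sg1 the levels per kilobase were 6.72, 56.9 and 2.87 in the same order.

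Lactate export is fed by glycolysis, draws on the same pyruvate as the mitochondria and is coupled to pH and to the hypoxia response, so 164 genes of these pathways were listed, of which 14 are in the table analysed. The other listed genes, among them the remaining members of the transporter family, were not analysed here. With sg1, 6 of the 14 rose and 8 fell. With sg2, 1 rose, 5 fell and 8 did not pass, and with sg3, 2 rose, 4 fell and 8 did not pass. Over the table, 50.1% of genes rose and 39.1% fell with sg1, 30.2% and 29.4% with sg2, and 26.5% and 33.4% with sg3. These shares depend on the scaling. Scaled to table totals, 353 of the 982 genes rose and 420 fell with sg1, 133 and 473 with sg2, and 142 and 377 with sg3. The median log2 difference of the 14 genes was -0.26 with sg1 (0.20 over the table), -0.11 with sg2 (-0.02 over the table) and -0.03 with sg3 (-0.03 over the table). Because the table was itself limited to genes that differ between knockout and control, these shares describe the table and not the transcriptome. The adjusted p-values of single genes against sgControl, above and below, are likewise for genes already selected for such a difference. Among the 3 lines 12 of the 14 differed, beside 75.3% of all genes tested, which is near that share.

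Of the 35 listed genes of glucose uptake and glycolysis, 3 were deposited. Pfkfb4, a bifunctional enzyme that sets the level of an activator of phosphofructokinase and is known to respond to hypoxia, was lower in sg1 (-0.98, adjusted p = 2.77e-07). It stood at 217.1 to 229.8 in sg2 and at 222.6 to 253.1 in sg3, against 219.5 to 231.7 in sgControl. Pfkm, the muscle-type phosphofructokinase, rose with sg1 (0.41, adjusted p = 2.53e-05) but missed the threshold with sg2 (0.04) and sg3 (0.15). Ldhd, which oxidizes D-lactate in mitochondria, rose with sg3 (1.05, adjusted p = 8.2e-05) and with sg1 (0.48, adjusted p = 0.0159), and was 0.23 with sg2 without passing. Its values spanned 54.6 to 69.0 for sgControl, 74.7 to 96.1 for sg1, 63.7 to 86.0 for sg2 and 106.9 to 147.9 for sg3. The rise of Ldhd with sg1 no longer passed without sgControl replicate 2 (adjusted p = 0.0665), without sg1 replicate 1 (0.0503) or without sg1 replicate 3 (0.0631). No member of this list passed with all 3 lines, although Pfkm and Ldhd had positive differences with each. Pfkm with sg3 (adjusted p = 0.0613) passed without sgControl replicate 3 (0.0165) or sg1 replicate 3 (0.0495), and when scaled to table totals without the largest feature (0.0271). With sg1, Pfkm did not pass when scaled to equal table totals (adjusted p = 0.0617), and Ldhd passed under none of the 3 other scalings (0.0728 to 0.209). Pfkm overlaps Senp1, and Ldhd overlaps Znrf1, on the opposite strand.

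Of 26 genes of pyruvate use in mitochondria and the shuttles that serve it, 3 were deposited. Dlat, a core subunit of the pyruvate dehydrogenase complex, fell with sg1 (-0.36, adjusted p = 6.36e-06) and sg2 (-0.19, adjusted p = 0.00507), and was -0.06 with sg3 without passing. Got1, the cytosolic aspartate aminotransferase, fell with sg1 (-0.41, adjusted p = 7.44e-06) but missed the threshold with sg2 and sg3, at -0.13 (adjusted p = 0.0607) and -0.14 (0.0593). With a replicate block both passed (0.0396 and 0.0383), as they did scaled to table totals (-0.34, adjusted p = 0.00152, and 0.0310) and by median of ratios (0.0101 and 0.0293). With sg2 it also passed scaled to table totals without the largest feature (0.0286) and without sg3 replicate 1 (0.0344) or 2 (0.0372), and with sg3 without sg3 replicate 2 (0.0113). Mdh1, the cytosolic malate dehydrogenase, fell with sg2 from 1827 to 2014 normalized counts in sgControl to 1341 to 1488 (-0.45, adjusted p = 1.97e-05). The smaller falls of Mdh1 with sg1 (-0.16, adjusted p = 0.0318) and sg3 (-0.15, adjusted p = 0.049) were lost when single libraries were left out, with adjusted p up to 0.132 and 0.204. They were also lost in limma without trend (0.0561 and 0.0819), and the fall with sg3 when scaled to table totals without the largest feature (0.115). For sg1 these were sgControl replicates 1 and 3 and sg1 replicates 1 and 2. For sg3 they were sgControl replicates 1 and 3, sg1 replicate 1, and replicates 1 and 2 of both sg2 and sg3.

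Slc4a8, a sodium-driven exchanger of chloride for bicarbonate, was the single deposited gene of 22 listed for pH regulation. It rose from 129.7, 134.2 and 135.4 in sgControl to 227.6, 214.3 and 219.9 in sg1, 192.2, 204.1 and 192.6 in sg2 and 208.3, 195.4 and 180.7 in sg3. All knockout libraries exceeded all control libraries. The log2 differences were 0.72 (adjusted p = 3.27e-06), 0.56 (0.000144) and 0.54 (0.000205), and the difference among the lines did not pass (adjusted p = 0.179). Slc4a8 thus moved opposite to Slc16a3 with each line, at a much smaller size.

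The hypoxia list placed 5 of 55 genes in the table, and they did not move as a group. Vegfa, the angiogenic growth factor, stood at 372.4, 331.9 and 426.1 in sgControl, 257.3, 251.2 and 285.1 in sg1, 300.9, 216.1 and 217.9 in sg2, and 209.5, 230.0 and 208.9 in sg3. It fell with each line, with log2 differences of -0.50 (adjusted p = 0.00122), -0.63 (0.000414) and -0.79 (5.29e-05), and the difference among lines did not pass (adjusted p = 0.117). Stc1, a secreted glycoprotein, differed widely. Its values spanned 160.5 to 271.7 for sgControl, 266.9 to 326.9 for sg1, 3.49 to 4.18 for sg2 and 40.4 to 42.9 for sg3, with falls in sg2 (-5.39, adjusted p = 1.11e-13) and sg3 (-2.27, adjusted p = 2.38e-08). The rise of Stc1 with sg1 (0.51, adjusted p = 0.0188) no longer passed without sgControl replicate 1 (0.0598), sgControl replicate 2 (0.123) or sg1 replicate 3 (0.0865), and under each of the 3 other scalings (0.0722 to 0.22). Epas1, the hypoxia-inducible factor subunit HIF-2α, rose with sg1 from 287.5 to 392.0 to a range of 734.1 to 777.9 (1.11, adjusted p = 2.97e-08). It did not pass with sg2 (-0.09) or sg3 (0.03), but with sg2 it passed without sgControl replicate 2 (-0.23, adjusted p = 0.0273) and when scaled to table totals (-0.29, 0.0231). Egln3, a prolyl hydroxylase that marks these factors for degradation, rose with sg1 (0.32, adjusted p = 3.42e-05; 0.295 when scaled to table totals) but missed the threshold with sg2 (0.13; adjusted p = 0.0525, and 0.0359 with a replicate block) and sg3 (0.07). With sg2 it also passed without sgControl replicate 3 (0.0318) or without sg3 replicate 1 or 2 (0.0450 and 0.0425).

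Myc was the single deposited gene of 15 listed for the MYC and MLX network. It fell with sg1 (-0.87, adjusted p = 4.38e-08) but missed the threshold with sg2 (-0.17) and sg3 (-0.09), a difference among lines at adjusted p = 1.39e-07. With sg2 it passed without sgControl replicate 2 (-0.26, adjusted p = 0.0110), without sg2 replicate 1 (-0.23, 0.0401) and under 2 other scalings (0.0270 and 0.00033). The line comes from a tumor with a Myc transgene, and reads of the transgene and of the endogenous gene may be counted together. Over the 14 pathway genes, Slc16a10, Vegfa and Mdh1 fell with all 3 lines, Mdh1 with the losses given above, and Slc4a8 rose with all 3. Of all genes tested, 11.8% fell and 14.1% rose with each of the 3 lines. The log2 differences of these 4 genes ran from -0.79 to 0.72, against -3.61 to -3.28 for Slc16a3.

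**Figure D3:**
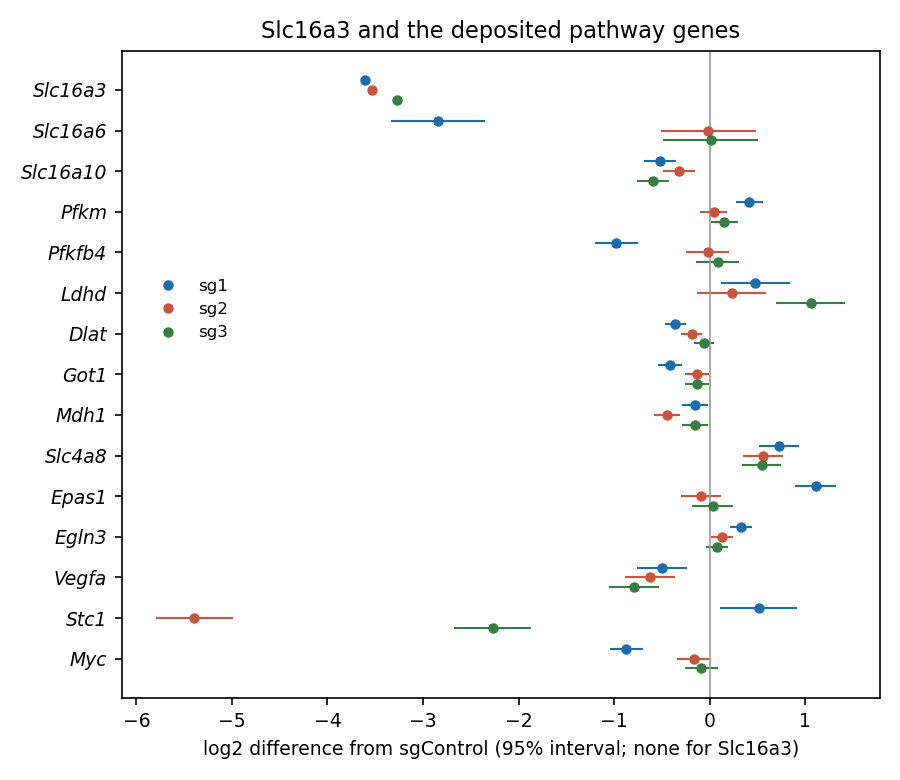
Log2 difference from sgControl (horizontal) for Slc16a3 and, with 95% intervals, for the 14 deposited pathway genes, 1 point per knockout line (sg1 blue, sg2 red, sg3 green; 3 libraries each). Slc16a3 lies between -3.61 and -3.28 with all 3 lines, whereas Slc16a6, Pfkfb4, Epas1 and Myc move with sg1 and have intervals that include 0 with sg2 and sg3.

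The genes whose profile over the 9 knockout libraries came nearest to that of Slc16a3 were found by the root mean square distance of log2 differences from the control mean. They were Rassf9 (distance 0.97), H2afy2 (1.24), 3830417A13Rik (1.27), Setbp1 (1.48), Gm28539 (1.49), Col24a1 (1.503), Bdkrb2 (1.75) and Tfpi (1.78). The nearest gene is thus still 0.97 on the log2 scale away, or 1.96-fold. Rassf9, a member of the Ras association domain family, was at 60.9, 31.7 and 64.8 in sgControl, and spanned 5.32 to 7.74 with sg1, 6.97 to 11.95 with sg2 and 3.85 to 13.97 with sg3. H2afy2, which encodes the histone variant macroH2A2, was at 85.4 to 97.3 in sgControl and at 9.02 to 37.5 over the knockout libraries. Neither gene passed the test among lines (adjusted p = 0.442 and 0.48), an outcome favored by picking genes near Slc16a3 over the same libraries. Both are low in the knockout libraries. H2afy2 overlaps Aifm2 on the opposite strand.

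Bdkrb2, the bradykinin B2 receptor, had the profile most alike in shape (cosine 0.996) at a smaller size. It stood at 49.1, 63.5 and 60.1 in sgControl and at 13.1 to 19.9 in the knockout libraries, with log2 differences of -1.72, -1.80 and -1.72 and no difference among lines that passed (adjusted p = 0.947). Gm28539 had log2 differences of -2.19, -2.24 and -2.04 but rests on few reads, with 8.86 to 25.8 normalized counts in control, and shares its locus with Hira and Mrpl40. The other near genes differed among the lines. The log2 differences were -1.48, -1.49 and -2.69 for Tfpi, an inhibitor of coagulation, -4.09, -2.76 and -1.10 for Setbp1, and -2.24, -3.99 and -1.87 for 3830417A13Rik. They were -3.88, -3.22 and -0.91 for Col24a1, a collagen chain. By cosine the next genes were Rassf9 (0.987), the transcription factor gene Foxc1 (0.985) and Dnlz (0.983), whose falls were only -0.26 to -0.21 and -0.26 to -0.18. These genes were picked for their likeness over the 9 knockout libraries and share the control libraries with Slc16a3. Their falls and their tests among lines are therefore descriptions.

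**Figure D4:**
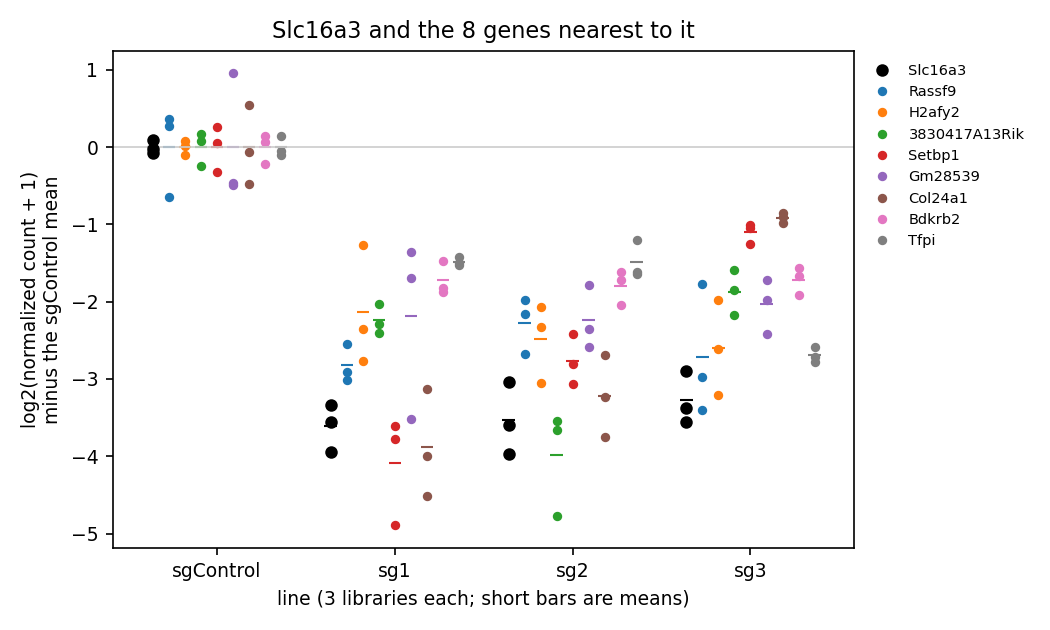
Log2(normalized count + 1) minus the sgControl mean in each library for Slc16a3 (black) and its 8 nearest genes, 3 points per line with short bars as means. The means of Slc16a3 run from -3.61 to -3.28 and those of Bdkrb2 from -1.80 to -1.72, while Setbp1 runs from -4.09 with sg1 to -1.10 with sg3.

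Slc16a3 lies on chromosome 11 between Ccdc57 and Csnk1d, and no annotated gene overlaps it. These neighbors and the 21 protein-coding genes after Slc16a3 on the chromosome were not analysed here. Fasn, the fatty acid synthase gene, has 1 protein-coding gene, Ccdc57, between it and Slc16a3. It fell with sg1 (-0.38, adjusted p = 0.00011) but missed the threshold with sg2 (-0.08) and sg3 (-0.14), where it passed without sgControl replicate 2 (adjusted p = 0.0265) or sg3 replicate 2 (0.00858). Scaled to table totals Fasn passed with both sg2 (-0.29, adjusted p = 0.00409) and sg3 (-0.25, 0.0175). Notum, which encodes a Wnt-inactivating enzyme, has 12 such genes between and rose with sg1 (1.22, adjusted p = 9.83e-05) and sg2 (1.16, adjusted p = 0.000388), and was -0.33 with sg3 without passing. Mafg (15 genes between) fell with sg1 (-0.31, adjusted p = 0.000199) but missed the threshold with sg2 (-0.12) and sg3 (-0.11), where it passed without sg2 replicate 1 (0.0416) and without sg3 replicate 2 (0.0491), respectively. Scaled to table totals Mafg passed with both (0.00183 and 0.0467), and with sg2 also by median of ratios (0.0234). Mrpl12 (27 genes between) differed by -0.33, -0.20 and -0.15, and its call with sg3 (adjusted p = 0.0436) was lost without any of 7 libraries, 1 at a time (adjusted p up to 0.206). That call was also lost when scaled to table totals without the largest feature (0.08) and in limma without trend (0.0806). C1qtnf1 (64 genes between) rose with sg1 (0.95, adjusted p = 2.67e-10) and fell with sg3 (-0.14, adjusted p = 0.0427), a call lost in 10 of 20 alternatives, 9 of them single left-out libraries. With sg2 it was 0.13 (adjusted p = 0.0548, and 0.0305 with a replicate block). The log2 differences of these 5 genes ran from -0.38 to 1.22, against -3.61 to -3.28 for Slc16a3. Of the 82 deposited genes on chromosome 11, 52 (63.4%) were lower in the mean of the lines, against 482 of all 982 (49.1%). Their median was -0.20, against 0.14 over the table. As the table was limited to genes that differ from control, few lie near 0, and the median mainly follows the share of lower genes.

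The sums of the table were 2069298 to 2713951 normalized counts per library, of which the feature ENSMUSG00000119584 took 16.1% to 32.9%. They cover 982 genes, so the depth of the libraries is unknown. Of 22 mammary epithelial markers 4 were deposited. Krt8 (1.10, -0.05 and -0.22 with sg1, sg2 and sg3), Krt18 (0.80, -0.02 and -0.33), Krt19 (0.33, -0.29 and -1.44) and Cgn (1.16, -0.96 and -3.40) rose with sg1 and fell with sg3, and with sg2 Krt19 and Cgn fell while Krt8 and Krt18 did not pass unless scaled to table totals (adjusted p = 0.0122 and 0.0268). Of all genes tested, 50.1% rose with sg1 and 33.4% fell with sg3. The rise of Krt19 was lost without sgControl replicate 2 or without sg1 replicate 1 or 2 (adjusted p up to 0.108) and under each of the 3 other scalings (0.136 to 0.366). Its fall with sg2 was lost without any of 8 libraries, sg2 replicate 3 the most (adjusted p = 0.176), with a replicate block (0.0551) and in limma without trend (0.0918). Slc16a3 was low with all 3 lines, the trait for which it was chosen, so nothing is read from setting it beside these markers. The 10 fibroblast markers and the 7 endothelial and adipocyte markers were not analysed here. Of 11 leukocyte markers, Cd68 (1.19, 0.28 and 0.15) and Il2rg (0.32, 0.12 and -3.41) were, and neither followed Slc16a3. The part of cell state in the level of Slc16a3 was not tested.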

How the data were processed

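The authors deposited 1 table of normalized gene counts, a signal that the values show to be estimated counts divided by 1 size factor per library (0.859 to 1.15). Of values under 100 reads, 79.9% to 85.1% were whole within 0.05 reads, where 10.0% would be so by chance, so whole reads were not recovered and no count model was run. The submitters' processing notes name STAR 2.7.8a, Partek and DESeq2. The mouse build, annotation and counting method are not given in the sources used here.

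The table holds genes already limited to differences from control, and 972 of 982 had a symbol in GENCODE M21, which was used for names, gene order and exon length. Values were analysed as log2(value + 1) with limma 3.58.1 (lmFit, eBayes with trend and robust estimates) in R 4.3.3, with 12 libraries and 4 groups in 1 fit. Two-sided p-values were adjusted by Benjamini-Hochberg over the table, with a threshold of 0.05 and no filter. For the mean of the 3 guide lines against sgControl, 982 of 982 genes passed. Adjusted p-values against sgControl are therefore for genes already selected for that difference, and describe these genes rather than test them independently. The log scale with a pseudocount understates changes of low genes. The code was tested on simulated data. Slc16a3 and the gene lists were chosen with earlier results of these data known. Named genes were the 8 nearest by distance, the 4 nearest by cosine, the list members deposited and the deposited genes next to Slc16a3 on its chromosome. Alternatives covered 3 other scalings, pseudocounts of 0.5 and 5, a filter at a mean of 50, limma without trend, a replicate block, leaving out each library and, added after the data were seen, the 9 knockout libraries alone. Deviations from the group means correlated over 0.1 in all 3 same-number pairs between sgControl and sg1 (0.199 to 0.238) and between sgControl and sg2 (0.122 to 0.164), which pairs these libraries by that limit, but in none between sgControl and sg3 (-0.0786 to -0.00383). The pairing rests on these values, as no label explains the numbers. No replicate pair was a duplicate (chi-square over degrees of freedom of 13.0 or more).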

Additional observations from a re-analysis of the deposited data

Results flagged for a closer look

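Of the 14 deposited pathway genes, 12 differed among the 3 knockout lines by limma's test of equality of the lines with Benjamini-Hochberg adjustment, which is near the 75.3% of all genes tested. For Slc16a3 the test did not pass, at lower counts and a larger error than most of these genes, and no test compared it with them. The adjusted p was 6.71e-14 for Stc1, 3.5e-09 for Slc16a6, 7.4e-09 for Epas1, 9.13e-08 for Pfkfb4 and 1.39e-07 for Myc. It was 0.000197 for Dlat, 0.000255 for Pfkm, 0.000468 for Got1, 0.000518 for Mdh1, 0.000993 for Ldhd, 0.00106 for Egln3 and 0.0138 for Slc16a10. For Slc16a6, Epas1, Pfkfb4 and Myc the line that stood apart was sg1, for Mdh1 it was sg2 and for Ldhd it was sg3. Each line is 1 clone, so a difference between guides and a difference between clones cannot be told apart.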

How the results depend on the processing

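Of the 20 alternatives, 9 could not or did not move the difference of Slc16a3 from control with a given line, and 11 did. The gene was chosen by this contrast, so the ranges are descriptions. Leaving out 1 library gave log2 differences of -3.75 to -3.45 for sg1, -3.78 to -3.31 for sg2 and -3.47 to -3.14 for sg3, and the other alternatives -3.82 to -3.47, -3.735 to -3.40 and -3.38 to -3.17. Between sg1 and sg2 the difference ran from -0.297 to 0.172 over single left-out libraries. It turned positive without sg1 replicate 1 (0.0884) and without sg2 replicate 2 (0.172), and adjusted p stayed between 0.269 and 0.813. The 9 knockout libraries alone, an alternative chosen after seeing the data, gave adjusted p of 0.813, 0.288 and 0.559 between lines. For sg1 against sg3 adjusted p ran from 0.0586 to 0.616 and for sg2 against sg3 from 0.116 to 0.936, so none passed. Of the 8 genes nearest by distance, 2 were among the 8 nearest by cosine. The count of pathway genes that passed ran from 10 to 14 with sg1, 6 to 9 with sg2, 5 to 7 with sg3 and 10 to 13 among lines. For the 77 contrasts of other named genes against control that passed, together with the 4 SDs of Slc16a3, 1451 of 1522 alternatives kept the result, 70 lost the call, 0 reversed and 1 moved, the control SD of Slc16a3 (0.142 when scaled to table totals). Of the 28 such contrasts that missed the threshold, 15 passed in at least 1 alternative, in 48 of 558 alternatives. The filter at a mean of 50 left 892 genes and gave no value for H2afy2, Bdkrb2, Col24a1, 3830417A13Rik, Notum, Rassf9, Cgn and Gm28539. Scaling to table totals shifted the median of the table to -0.01, -0.22 and -0.13 and the calls to 353 higher and 420 lower with sg1, 133 and 473 with sg2, and 142 and 377 with sg3. That scaling ended the rises with sg1 of Stc1 (adjusted p = 0.22), Krt19 (0.366), Il2rg (0.36), Ldhd (0.209), Pfkm (0.0617) and Egln3 (0.295), and both other scalings ended those of Stc1 (0.0722 and 0.0855), Krt19 (0.136 and 0.169) and Ldhd (0.0728 and 0.0833).

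Over all groups, deviations from the group means correlated over 0.1 in 11 of 18 same-number pairs and 3 of 36 others. Every same-number pair did so for sgControl with sg1 and with sg2, none for sgControl with sg3, and 2, 2 and 1 of 3 between the knockout lines, so the fit of all 4 groups was kept without a block. A replicate block left the differences of Slc16a3 as they were by balance, at -3.61, -3.53 and -3.28, with adjusted p of 0.771, 0.197 and 0.438 between lines, and gave 14, 8 and 7 pathway genes against control and 12 among lines. Among single named genes against control, the block ended the call of Krt19 with sg2 (adjusted p = 0.0551), gained those of C1qtnf1, Egln3 and Got1 with sg2 and of Got1 and Col24a1 with sg3, and changed no other.

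Estimated reads of 26.1 to 53.2 per knockout library, and 3 dishes per line, limit what can be resolved between lines, with 95% intervals that reach 1.48-fold to 1.77-fold.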
